A study of Mus musculus with 8 samples.

Results

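Fibroblast and collagen matrix transcripts were examined in sorted cardiac macrophages. They comprise 10 genes chosen by name, *Col1a1*, *Col1a2*, *Col3a1*, *Dcn*, *Lum*, *Pdgfra*, *Postn*, *Sparc*, *Bgn* and *Tcf21*, out of 24516 genes in the count table. RNA was sequenced from 4 libraries of endocardially derived macrophages (EcTM) and 4 libraries of other macrophages, outside that lineage (non-EcTM). Mice of both groups were C57BL/6, carried Nfatc1Cre/+ and Rosa26Tomato reporter/+ and had their hearts taken at postnatal day 28, so the non-EcTM bore the same alleles as the EcTM. *Nfatc1* encodes a transcription factor active in the endocardium, and Cre made from this gene switches the reporter on in cells that express it and in their descendants. The EcTM libraries are titled E591, E592, E604 and E606, and the non-EcTM libraries N591, N592, N604 and N606, so that each E library shares its number with an N library. How many animals went into a library, and whether a number stands for 1 animal, is not given in the sources used here, so p-values measure the spread between libraries.

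Cardiac fibroblasts are the main source of fibrillar collagen in the heart. They secrete the chains of type I and type III collagen as procollagen, which is trimmed and laid down outside the cell as fibrils, and small leucine-rich proteoglycans such as biglycan, decorin and lumican bind these fibrils and shape their spacing. Macrophages are better known for taking up and clearing collagen than for making its fibrillar types.

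The comparison of the groups rests on the 4 members with counts in every library, and the promoters of 3 of them are shown for that reason, without *Col1a1*. Each line gives the 250 bases before the annotated start of the gene, 5′ to 3′ on the plus strand, from RefSeq in build GRCm38.p6. Capitals mark matches, on either strand, to the letters CCAAT of the CCAAT box, the letters TATAAA of the TATA box and the letters GGGCGG of the GC box.
Col3a1 chr1:45311288-45311537: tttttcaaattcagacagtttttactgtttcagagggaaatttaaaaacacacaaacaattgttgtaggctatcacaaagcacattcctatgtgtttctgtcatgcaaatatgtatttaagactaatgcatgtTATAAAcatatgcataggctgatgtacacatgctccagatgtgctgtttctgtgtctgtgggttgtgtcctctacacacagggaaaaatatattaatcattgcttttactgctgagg
Col1a2 chr6:4505368-4505617: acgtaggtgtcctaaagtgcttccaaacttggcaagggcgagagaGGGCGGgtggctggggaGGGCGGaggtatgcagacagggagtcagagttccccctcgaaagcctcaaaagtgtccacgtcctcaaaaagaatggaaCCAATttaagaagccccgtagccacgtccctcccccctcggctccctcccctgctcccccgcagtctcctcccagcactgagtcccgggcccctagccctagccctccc
Bgn chrX:73483351-73483600: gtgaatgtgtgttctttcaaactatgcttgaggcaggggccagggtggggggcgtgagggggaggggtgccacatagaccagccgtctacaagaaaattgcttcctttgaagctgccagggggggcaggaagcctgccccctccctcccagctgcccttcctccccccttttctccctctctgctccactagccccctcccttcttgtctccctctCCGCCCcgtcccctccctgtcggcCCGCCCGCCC
The *Col1a2* window held 1 CCAAT, which began 109 bases before the start, and 2 GGGCGG. The *Col3a1* window held 1 TATAAA, 117 bases before the start. The *Bgn* window held 3 matches to GGGCGG, all as its reverse complement CCGCCC, and the 2 nearest the start overlapped. Of 32851 promoter windows of the same length, 33.8% held CCAAT, 12.4% held TATAAA and 32.7% held GGGCGG, so each match is a common one. The matches describe letters only.

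The cells were checked against macrophage markers. Of 16 such genes, 15 had counts in every library, and *Itgam* was at 0 in all 8. The summed level of the list was 31292 to 31892 CPM (counts relative to the library total after TMM scaling) in EcTM and 29143 to 31521 CPM in non-EcTM. This sum was higher in EcTM in 4 of 4 pairs. Of the 15 tested genes of the list, 12 had a log2 fold change above 0, against 3717 of all 7667 tested genes, and 0 passed the adjusted threshold. The 10 fibroblast and matrix genes together reached 37.5 to 169 CPM in EcTM, against 30.5 to 227 CPM in non-EcTM. Counts in genes summed to 2152425 to 2576407 per EcTM library and 2281657 to 2937464 per non-EcTM library. At these depths a count of 0 allows, by counting error alone, a level of up to 3 counts, which is 0.990 to 1.43 CPM. This does not cover any part of the counting step in a zero, which is taken up below.

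Of the 10 genes, 7 had a count in at least 1 library and 4 passed the filter on low counts. These 4 were *Col3a1*, *Col1a1*, *Col1a2* and *Bgn*, which had counts in 8 of 8 libraries. *Lum* had counts in 4 libraries, *Tcf21* in 3 and *Dcn* in 1. *Pdgfra*, *Postn* and *Sparc* were at 0 in all 8. All 6 members with 1 curated RefSeq transcript had a count, against 1 of the 4 members with several. In families of housekeeping genes (ribosomal proteins, proteasome, respiratory chain and translation factors), the median total count over the 8 libraries fell with the number of curated transcripts. It was 572.5 where there was 1 (182 genes), 44.0 where there were 2 (47 genes) and 15.0 where there were 3 or more (37 genes). Of these housekeeping genes, 9, 5 and 11 were at 0 in all libraries in the same order. Over all matched genes of the table, whatever their expression, the share at 0 did not go this way, at 42.5% of genes with 1 curated transcript, 40.6% with 2 and 38.6% with 3 or more. *Pdgfra*, *Postn* and *Sparc* have 5, 6 and 2 curated transcripts and *Dcn* has 2. The part of the counting step in their zeros was not tested, so they are given as listed values and not as a measure of absence. The zeros of *Itgam* and of genes in the other lists are given in the same way.

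*Col3a1* encodes the chain of type III collagen, which forms thin, extensible fibrils in heart and vessel walls. It had 160, 27, 52 and 43 counts in E591, E592, E604 and E606, against 328, 43, 29 and 71 counts in N591, N592, N604 and N606. In CPM these were 76.2, 12.1, 22.8 and 17.0 in EcTM, against 130, 16.8, 12.6 and 23.4 in non-EcTM. E591 and N591 were high and the other 6 were low, between 12.1 and 23.4 CPM, so the 2 groups overlapped. The exact Poisson interval of the count, which covers counting error only, was 136 to 187 in E591 and 293 to 365 in N591, and for the highest of the other libraries, N606, it was 55.5 to 89.6. The mean was 32.0 ± 29.8 CPM in EcTM, against 45.8 ± 56.5 CPM in non-EcTM (SD, n = 4 each). The group difference did not pass the test, with a log2 fold change of -0.26 ± 0.30 (SE, 95% interval -0.88 to 0.36) and an adjusted p of 0.974 in edgeR's quasi-likelihood test with the number as a block. *Col3a1* was higher in EcTM in 1 of 4 pairs.

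*Col1a1* and *Col1a2* encode the alpha 1 and alpha 2 chains that combine into type I collagen, the stiff fibre of the myocardium. *Col1a1* stood at 41.9, 6.70, 6.14 and 5.53 CPM in E591, E592, E604 and E606, against 31.0, 1.17, 7.41 and 11.2 CPM in N591, N592, N604 and N606. As for *Col3a1*, E591 and N591 lay above the other 6 libraries. The lower of them was 2.76 times the highest of the other 6 libraries for *Col1a1* and 3.25 times for *Col3a1*. The log2 fold change of *Col1a1* was 0.25 ± 0.55 (95% interval -0.88 to 1.38, adjusted p 0.990 in the same edgeR test), and 2 of 4 pairs were higher in EcTM.

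*Col1a2* went another way among the EcTM libraries. It had 15, 30, 24 and 5 counts in E591, E592, E604 and E606, against 52, 8, 11 and 10 counts in N591, N592, N604 and N606. N591 was again the highest at 20.7 CPM, but E591, at 7.15 CPM, lay below E592 at 13.4 CPM and E604 at 10.5 CPM. Its log2 fold change was 0.25 ± 0.79 (95% interval -1.38 to 1.88, adjusted p 0.994), the widest interval of the 4 genes. The group means were 8.26 ± 4.91 CPM in EcTM, against 7.97 ± 8.49 CPM in non-EcTM.

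The balance of the type I chains therefore differed between libraries. *Col1a1* made up 85.4% of the summed counts of both chains in E591 (exact 95% binomial interval 77.1 to 91.6), 33.3% in E592 (20.001 to 49.0), 36.8% in E604 (21.8 to 54.0) and 73.7% in E606 (48.8 to 90.9). In non-EcTM it made up 60.0% in N591 (51.0 to 68.5), 27.3% in N592 (6.02 to 61.0), 60.7% in N604 (40.6 to 78.5) and 77.3% in N606 (62.2 to 88.5). The intervals of E592 and E604 lay below that of E591, and the groups overlapped. The sums behind these shares ran from 11 counts in N592 to 130 in N591, and the intervals cover counting error only.

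*Bgn* encodes biglycan, a small proteoglycan that binds collagen fibrils and growth factors in the matrix. It stood at 42.9, 5.36, 19.3 and 22.1 CPM in E591, E592, E604 and E606, against 39.3, 15.3, 5.23 and 8.91 CPM in N591, N592, N604 and N606. E591 and N591 were the highest of their groups, and 3 of 4 pairs were higher in EcTM, E592 with N592 being the exception. The log2 fold change was 0.47 ± 0.47 (95% interval -0.49 to 1.44) and the adjusted p 0.964 in the edgeR test. Without E592 and N592 it was 1.04 with an unadjusted p of 0.0332 and an adjusted p of 0.981, and the lowest adjusted p over its alternatives was 0.936. *Bgn* lies on the X chromosome, and E592 and N592 differed from the others in sex-linked transcripts. *Xist* had 1 count in E592 and 8 in N592, against 935 to 1682 in the other libraries, and the Y-linked *Ddx3y* had 260 and 307 in E592 and N592, against 1 to 7. The part of sex in the *Bgn* values was not tested.

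**Figure D1:**
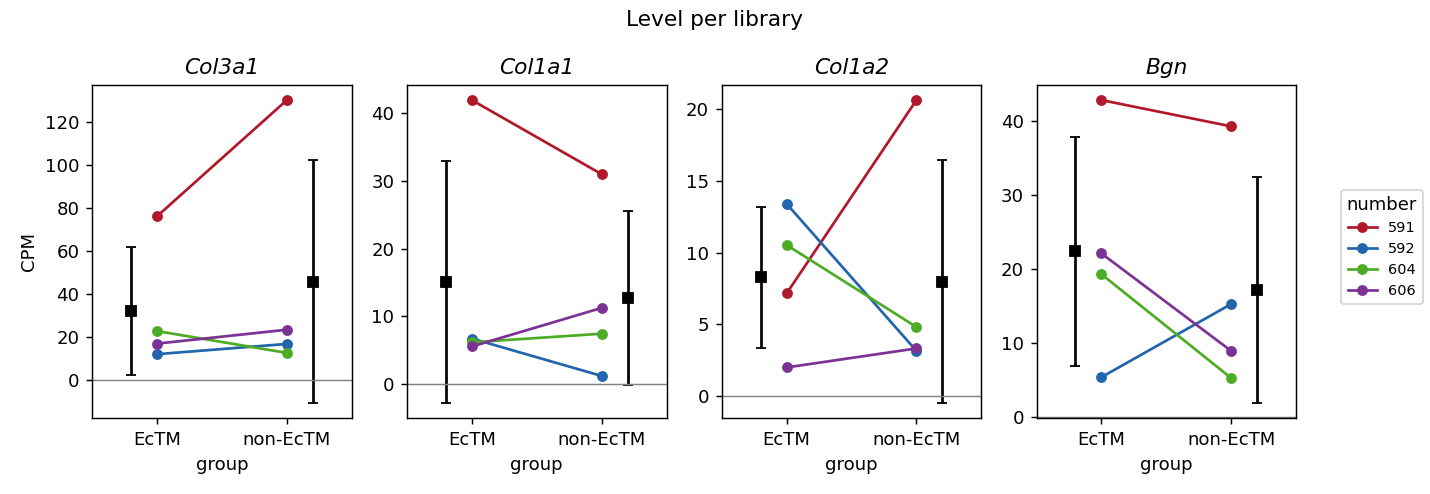
CPM of *Col3a1*, *Col1a1*, *Col1a2* and *Bgn* in each library, EcTM on the left of each panel and non-EcTM on the right, with lines between libraries that share a number. Black squares are group means ± SD (n = 4). E591 and N591, in red, are the highest for 3 of the 4 genes, while E591 lies below E592 and E604 for *Col1a2*.

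The other proteoglycans and the transcription factor were near the limit of the counts. *Lum*, which encodes the proteoglycan lumican, had 2, 0, 7 and 0 counts in E591, E592, E604 and E606, against 12, 0, 0 and 1 in N591, N592, N604 and N606. *Dcn*, which encodes decorin, lies beside *Lum* on chromosome 10 and had 3 counts in N591 and 0 in the other 7 libraries. So N591 held 12 of the 22 *Lum* counts and all 3 *Dcn* counts.

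*Tcf21* encodes a transcription factor of epicardium-derived fibroblasts. It had 0 counts in 4 of 4 EcTM libraries, against 0, 3, 1 and 2 counts in N591, N592, N604 and N606. Over the group totals this is 1.81-fold lower in EcTM, with 3 counts over the group as the floor for EcTM. The 6 non-EcTM counts are taken there without their counting error, so this is not a lower bound. N591, the library with the highest summed level of the members, was the 1 non-EcTM library without a *Tcf21* count. The exact Poisson interval of its count of 0 reaches 3.69, so it cannot be told apart from the other non-EcTM libraries. A fit with no filter on low counts gave *Lum* a p of 0.895, *Dcn* 0.528 and *Tcf21* 0.300 before adjustment in the edgeR test, each with an adjusted p of at least 0.992. *Pdgfra*, which encodes the platelet-derived growth factor receptor that marks cardiac fibroblasts, *Postn*, which encodes periostin of activated fibroblasts, and *Sparc*, which encodes a collagen-binding protein also made by endothelial cells, gave no value to compare.

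Levels between genes were set side by side per kilobase of transcript. *Bgn* had 8.18 ± 6.01 CPM per kilobase (SD over 8 libraries) and *Col3a1* had 6.99 ± 7.63. *Col1a1* followed at 2.34 ± 2.44, *Col1a2* at 1.52 ± 1.20, *Lum* at 0.466 ± 0.737, *Tcf21* at 0.224 ± 0.348 and *Dcn* at 0.0847 ± 0.240. Within libraries, the per-kilobase level of *Col3a1* was above that of *Col1a1* in 8 of 8, with a mean difference of 4.65 ± 5.75 (SD), and that of *Col1a2* was above that of *Lum* in 8 of 8, with 1.05 ± 0.758. *Bgn* was above *Col3a1* in 5 of 8 libraries and *Col1a1* above *Col1a2* in 5 of 8, with mean differences of 1.19 ± 4.13 and 0.824 ± 2.21, so the order within these 2 pairs varied between libraries. *Lum* was above *Tcf21* in 3 of 8, with both at 0 in 2. *Tcf21* was above *Dcn* in 3 of 8, with both at 0 in 4. *Dcn* has 2 curated transcripts, against 1 for the other genes in this order. The part of the counting step in its level was not tested.

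Between EcTM and non-EcTM, 0 of the 4 tested genes passed an adjusted p of 0.05, where the same edgeR fit called 0.0130% of all 7667 tested genes. At an unadjusted p under 0.05 the count was 0 of 4, against 5.40% of all genes, and 0 of the 4 passed in limma-voom. DESeq2 gave none of the 4 an adjusted p, since its own filter on mean counts removed them, and its unadjusted p-values were not under 0.05 either. The groups were free of overlap in 0 of the 4, against 2.70% of all tested genes, and 0 of the 4 had a single direction in 4 of 4 pairs, against 14.1%. The median log2 fold change of the 4 was 0.25, and over all tested genes it was -0.01. The intervals reach from a level in EcTM of 0.545 times to 1.28 times that in non-EcTM for *Col3a1*. For *Col1a2* they reach from 0.383 times to 3.67 times, so changes within these bounds were not excluded. These intervals carry no adjustment over all tested genes, so they are not a limit of detection at the adjusted threshold. A change beyond these bounds could also miss that threshold.

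**Figure D2:**
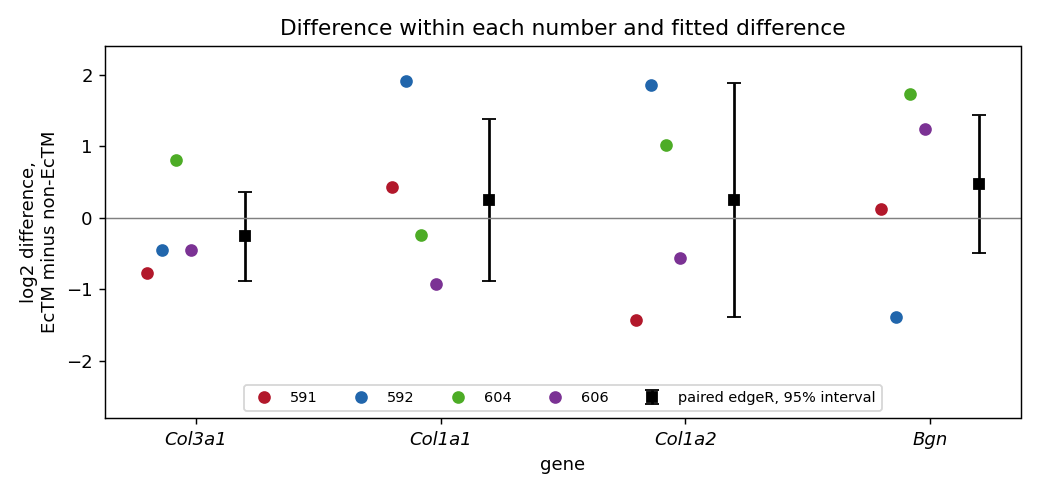
Difference in log2 CPM (prior count 2), EcTM minus non-EcTM, within each number for 4 genes (coloured points), and the fitted log2 fold change of the paired edgeR model with its 95% interval (black squares). Each gene has points on both sides of 0, and each interval contains 0.

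Both the number means and the pair differences varied. The SD of the 4 number means in log2 CPM was 1.26 for *Col3a1*, 1.37 for *Col1a1*, 0.95 for *Bgn* and 0.81 for *Col1a2*. The SD of the 4 pair differences was 0.70, 1.21, 1.38 and 1.49 in the same order. An SD of means and an SD of differences are not on one scale, so they are not compared with each other here. The pair differences were most alike for *Col3a1* and least alike for *Col1a2*. These 2 genes had the most and the fewest counts of the 4 tested, 753 and 155, so counting error weighs more on *Col1a2*. Each SD rests on 4 values. E591 and N591 both lay above the other 6 in 3 of the 4 tested members, against 5.88% of all tested genes. The members share their libraries and are not independent of each other. Without E591 and N591, the mean of *Col3a1* was 17.3 CPM in EcTM, against 17.6 CPM in non-EcTM, and its fitted log2 fold change was -0.039 ± 0.45, at an adjusted p of 0.998. The mean of *Col1a1* was then 6.12 CPM in EcTM, against 6.60 CPM in non-EcTM, that of *Bgn* 15.6 CPM in EcTM, against 9.80 CPM in non-EcTM, and that of *Col1a2* 8.63 CPM in EcTM, against 3.74 CPM in non-EcTM. The other log2 fold changes without this pair were 0.21 ± 0.92 for *Col1a1*, 0.63 ± 0.66 for *Bgn* and 0.91 ± 0.94 for *Col1a2*, and none passed.

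Endothelial markers were highest in E591 and N591, while mural and cardiomyocyte markers were highest in N591. The 10 endothelial genes with a count, of 15, summed to 414, 66.6, 53.1 and 265 CPM in E591, E592, E604 and E606, against 1152, 114, 168 and 144 CPM in N591, N592, N604 and N606, with *Pecam1*, *Tek*, *Emcn*, *Npr3* and *Esam* at 0. The 8 mural genes with a count, of 12, summed to 117, 98.3, 102 and 85.3 CPM in E591, E592, E604 and E606, against 322, 90.02, 215 and 115 CPM in N591, N592, N604 and N606, with *Myh11*, *Kcnj8*, *Abcc9* and *Pdgfrb* at 0. The 12 cardiomyocyte genes with a count, of 15, summed to 165, 123, 99.999 and 139 CPM in E591, E592, E604 and E606, against 213, 120.2, 119 and 179 CPM in N591, N592, N604 and N606, with *Myh6*, *Tnnt2* and *Pln* at 0. So N604 lay above E591 for mural genes, and N606 above E591 for cardiomyocyte genes. In E591 the summed level of the 10 fibroblast and matrix genes was 3.48 times the mean of the other EcTM libraries, beside 3.23 times for endothelial, 1.23 times for mural and 1.37 times for cardiomyocyte genes. In N591 it was 5.88 times the mean of the other non-EcTM libraries, beside 8.10, 2.30 and 1.53 times in the same order, and 0.997 times for macrophage genes. The part of these cell types in the collagen values was not tested, and in bulk RNA more cells of a type cannot be told apart from more RNA per cell.

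Other fibroblast markers were also highest in E591 and N591. The list of 20 such genes, 17 of them with a count, summed to 87.2, 25.02, 45.2 and 47.0 CPM in E591, E592, E604 and E606, against 206, 38.4, 44.1 and 51.5 CPM in N591, N592, N604 and N606. Only *Lamb1*, which encodes a laminin chain, and *Fstl1*, which encodes a secreted glycoprotein, passed the filter of this list. *Lamb1* had a log2 fold change of -0.94 ± 0.43 with an adjusted p of 0.907, and *Fstl1* had 0.02 ± 0.64 with an adjusted p of 0.998. The 5 epicardial and mesothelial genes with a count, of 8, summed to 0 to 5.24 CPM in EcTM, against 0 to 1.99 CPM in non-EcTM, with *Krt19*, *Upk1b* and *Lrrn4* listed at 0. Schwann cell genes summed to 38.3 to 52.3 CPM in EcTM, against 42.9 to 55.8 CPM in non-EcTM, mostly from *Mbp*.

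**Figure D3:**
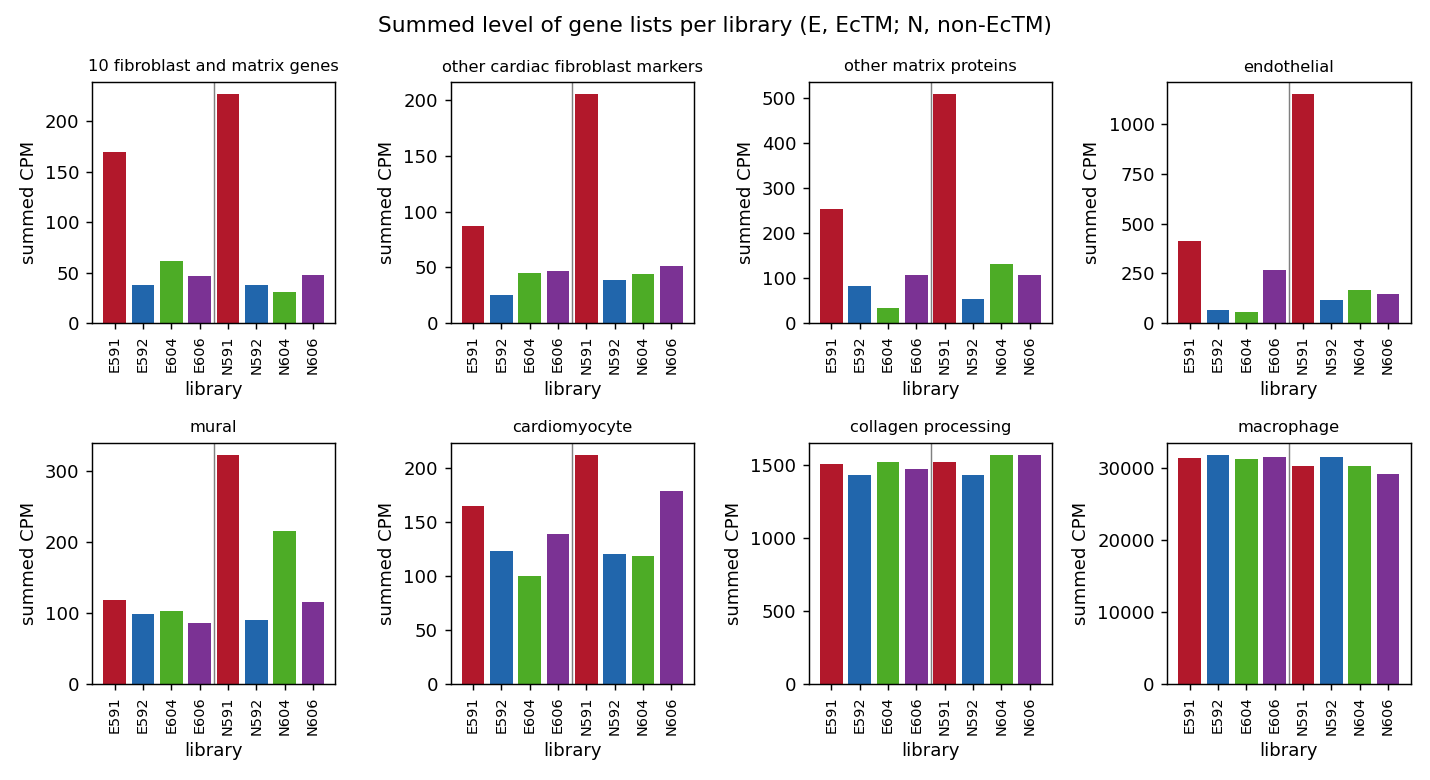
Summed CPM of 8 gene lists in each library, EcTM (E) left of the line and non-EcTM (N) right of it, coloured by number, each panel on its own scale from 0. The bars of E591 and N591 are the highest in the fibroblast, matrix and endothelial panels. The sums of collagen processing and macrophage genes are level across libraries, which does not describe each gene in them.

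The wider collagen family held genes with and without the high levels in E591 and N591. Of 15 other collagen genes 11 had a count and 6 were tested, with 0 past the threshold and 1 higher and 1 lower at an unadjusted p under 0.05, where 2.77% of all tested genes were higher and 2.63% lower by that measure. *Col14a1*, a collagen that sits on the surface of fibrils, was the most abundant by count at 546 ± 89.4 CPM in EcTM, against 453 ± 81.0 CPM in non-EcTM, higher in EcTM in 4 of 4 pairs (log2 fold change 0.27 ± 0.09, adjusted p 0.751). *Col4a2*, a chain of basement membrane collagen, stood at 177 ± 101 CPM in EcTM, against 242 ± 202 CPM in non-EcTM (-0.34 ± 0.15, adjusted p 0.897). *Col15a1* had -0.39 ± 0.34. *Col14a1* stood at 418 CPM in E591, the lowest of EcTM, and 393 CPM in N591, above N592 alone among non-EcTM. *Col4a2* was the highest in E591 and N591, at 317 and 546 CPM. The summed level of the list ran over a 1.93-fold range between libraries, against 7.44-fold for the 10 members. That sum is weighted by *Col14a1*, and other genes of the list varied more widely. *Col4a2* ran from 75.4 CPM in E604 to 546 CPM in N591, and *Col15a1* from 7.89 CPM in E604 to 102 CPM in E591. A wide spread between libraries was thus not particular to the members.

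For genes that modify and cross-link collagen, the summed level varied over a 1.10-fold range between libraries. Of 20 collagen processing genes 16 had a count and 8 were tested, with 0 past the threshold in either direction, 0 at an unadjusted p under 0.05 and a median log2 fold change of -0.04. The list summed to 1432 to 1519 CPM in EcTM, against 1431 to 1569 CPM in non-EcTM. *P4hb*, which encodes protein disulfide isomerase, a subunit of the prolyl hydroxylase that every secretory cell also uses alone, stood at 751 ± 54.4 CPM in EcTM, against 744 ± 41.2 CPM in non-EcTM. *Plod3*, a lysyl hydroxylase gene, had -0.28 ± 0.16, and the lysyl oxidase-like gene *Loxl3* had 0.96 ± 0.64, with EcTM above non-EcTM in 4 of 4 pairs, without passing. The summed level is weighted by *P4hb*, the most abundant gene of the list, and does not describe each gene. *Loxl3* ran from 4.95 CPM in N606 to 21.0 CPM in E591.

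Among 25 other matrix genes, 24 were in the table, 18 had a count and 5 were tested. Of these 5, 0 passed the threshold and 2 were lower at an unadjusted p under 0.05, against 2.63% of all tested genes. The median log2 fold change of the 5 was -0.81. Beside it, the 6 tested endothelial genes had a median of -0.85, with 0 of 6 above 0 and 3 lower at an unadjusted p under 0.05. The 6 tested mural genes had a median of -0.61, with 0 of 6 above 0 and 1 lower. The part of these cell types in the matrix values was not tested. *Sparcl1*, a relative of *Sparc*, stood at 63.8 ± 66.6 CPM in EcTM, against 109 ± 127 CPM in non-EcTM (-0.78 ± 0.34, adjusted p 0.897). The basement membrane gene *Nid1* had -1.09 ± 0.52 and the fibrillin gene *Fbn1* had -1.03 ± 0.51, both without passing. The list summed to 253, 82.7, 32.9 and 107 CPM in E591, E592, E604 and E606, against 510, 54.0, 131 and 107 CPM in N591, N592, N604 and N606.

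Ligands that act on fibroblasts, with their receptors, varied over a 1.34-fold range in their summed level. Of 13 genes of PDGF and TGF-beta signalling 9 were tested, with 0 past the threshold, 1 higher at an unadjusted p under 0.05 and a median of 0.05. *Tgfb1* stood at 479 ± 74.3 CPM in EcTM, against 413 ± 25.0 CPM in non-EcTM (0.20 ± 0.09, adjusted p 0.907). *Pdgfb* stood at 128 ± 4.10 CPM in EcTM, against 104 ± 2.51 CPM in non-EcTM (0.31 ± 0.15, adjusted p 0.914). *Pdgfa*, a ligand of the receptor encoded by *Pdgfra*, had 0.72 ± 0.42.

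Receptors that take up or bind collagen and SPARC spanned a wide range of levels, with *Mrc1* and *Stab1* high. *Mrc1*, which encodes a mannose receptor with a collagen-binding domain, stood at 5329 ± 338 CPM in EcTM, against 5351 ± 408 CPM in non-EcTM (-0.01 ± 0.04, 95% interval -0.09 to 0.08). *Stab1*, which encodes stabilin-1, a scavenger receptor for SPARC, stood at 4783 ± 365 CPM in EcTM, against 5011 ± 508 CPM in non-EcTM (-0.06 ± 0.06). *Itga1*, which encodes a collagen-binding integrin chain, stood at 7.27 ± 4.90 CPM in EcTM, against 8.08 ± 4.25 CPM in non-EcTM (-0.46 ± 0.84). Of the 9 genes in this list 4 were tested, 0 passed and the median was -0.04, and *Lair1*, *Ddr1* and *Gp6* were listed at 0.

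The genes nearest to *Col3a1* and *Bgn* in pattern were sought among all tested genes, by the root mean square difference of log2 CPM after centring each gene on its mean over the 8 libraries. For *Col3a1* they were *Fgd5* at 0.38, *Hspg2* at 0.43, *Arhgef5* at 0.48, *Aqp1* at 0.50 and *Efnb2* at 0.54, where the median over 7666 genes was 1.21. *Bgn* ranked 18 of these, *Col1a1* ranked 75 and *Col1a2* ranked 971. *Hspg2*, which encodes the basement membrane proteoglycan perlecan, stood at 284, 44.2, 55.3 and 116 CPM in E591, E592, E604 and E606, against 513, 66.9, 79.8 and 96.4 CPM in N591, N592, N604 and N606. For *Bgn* the nearest were *Ccdc80* at 0.27, *Col5a1* at 0.29, *Lgals8* at 0.40, and *Lncpint* and *Frat1* at 0.45 each, where the median was 1.11. *Col5a1*, which encodes a chain of the collagen that starts fibrils, stood at 22.9, 0.894, 6.58 and 8.29 CPM in E591, E592, E604 and E606, against 13.1, 4.31, 0.872 and 2.31 CPM in N591, N592, N604 and N606. It shared with *Bgn* the low values of E592 and N604, but it was chosen for its likeness to *Bgn* over these libraries. Its values there were below the level of 3 counts, which is 1.34 CPM in E592 and 1.31 CPM in N604. By the root mean square difference, *Col1a1* ranked 4896 and *Col1a2* ranked 5641 from *Bgn*.

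**Figure D4:**
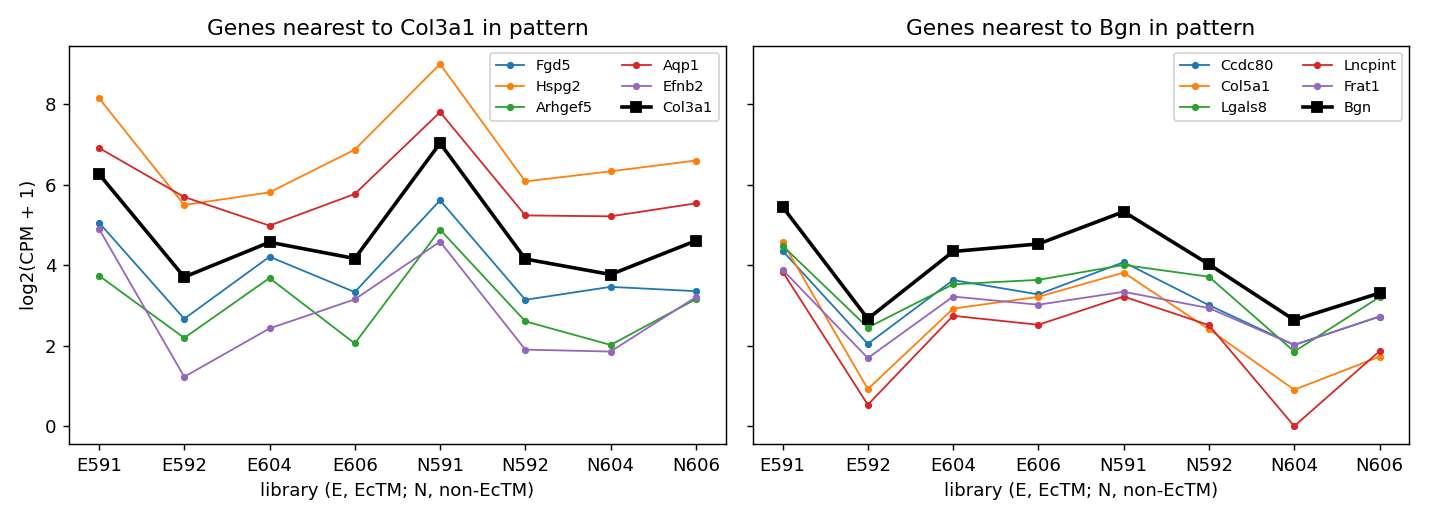
Level of *Col3a1* (left, black) and *Bgn* (right, black) as log2(CPM + 1) in each library, with the 5 genes nearest to each in centred log2 CPM. The *Col3a1* group peaks in E591 and N591, and the *Bgn* group is low in E592 and N604. The genes were chosen for this likeness, so the shared shape is not a separate result.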

How the data were processed

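Per the labels' protocols, RNA of macrophages sorted by flow cytometry was purified on a micro-scale column and converted into stranded total RNA libraries with a kit for very low inputs. Reads were demultiplexed with bcl2fastq 2.17 and aligned to mm10 with TopHat, and DESeq2 under R 3.2 was used, per the submitters' processing notes. How reads were counted, with which annotation and strand setting, is not given in the sources used here. Whole-number counts of 24516 genes in 8 libraries make up the deposited table. It also gives log2 values that the authors headed CPM. A regularised log of the counts in DESeq2, over the 14319 genes with a count, differed from these by at most 0.00881 with number and group in its design and by at most 0.139 with the group alone. They were used only for this check.

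Coordinates and transcript numbers came from RefSeq GRCm38.p6 by Entrez number (24447 genes matched), and transcript lengths from GENCODE M21 on the same assembly. Genes passing edgeR's filterByExpr (7667) were fitted with edgeR 4.0.16 (TMM, quasi-likelihood F-test) in R 4.3.3, with the number as a replicate block, with Benjamini-Hochberg adjustment over all tested genes and a threshold of 0.05. The SE is the log2 fold change divided by the root of F. Log2 CPM used a prior count of 2. Same-numbered libraries had correlations of deviations from the group means across genes of 0.12 to 0.19, and other pairs -0.13 to 0.05. DESeq2 1.42.0 and limma 3.58.1 were run beside it, along with other scalings, filters, the fit without the block and fits without single libraries or pairs. The fit was tested on simulated data. Counting intervals are exact (scipy 1.17.1), and figures were drawn with matplotlib 3.10.9.

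Members and lists were chosen with earlier results of these data known, so no set test and no adjustment over a list alone was made. Beside the members, up to 3 tested genes of a list with the smallest p and its most abundant gene could be named, and the 5 genes nearest in pattern to each of the 2 most abundant members. *Xist*, *Ddx3y* and the listing of genes at 0 lie outside this rule and were chosen after values were seen.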

Additional observations from a re-analysis of the deposited data

Results flagged for a closer look

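Of 34 groups of 4 libraries examined, 9 had a library far from the other 3 by Dixon's criterion, where chance gives about 1 in 20. In all 9 it was E591 or N591. Among the members they were *Col1a1* in E591 at 41.9 CPM, *Col3a1* in E591 at 76.2 CPM, *Col3a1* in N591 at 130 CPM and *Col1a2* in N591 at 20.7 CPM. The summed level in N591 stood apart for the 10 members at 227 CPM, for other matrix proteins at 510 CPM, for other cardiac fibroblast markers at 206 CPM, for PDGF and TGF-beta ligands and receptors at 735 CPM and for endothelial genes at 1152 CPM. These groups share libraries, so the flags are not independent, and the cause was not tested.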

How the results depend on the processing

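Under 18 or 19 alternatives for each of the 4 tested members, none passed the threshold in any, and the lowest adjusted p was 0.813, for *Col3a1* in limma-voom. DESeq2, which is among these alternatives, gave the 4 members no adjusted p, so they could not be among its calls. The fit without the replicate block called 0 genes of all tested, paired DESeq2 called 26, paired limma-voom 19 and the fit with no filter on low counts 10, against 1 in the paired edgeR fit, and 0 members were among them. Fits that left out 1 library or 1 pair called 0 to 2. Without the replicate block the log2 fold change was -0.52 for *Col3a1*, 0.38 for *Bgn*, 0.24 for *Col1a1* and 0.05 for *Col1a2*, and no call on a member changed. *Col1a2* turned to -0.032 in limma-voom. Paired fits without 1 pair gave -0.23 to 0.68 for *Col1a1*, -0.39 to 0.91 for *Col1a2*, both lowest without E592 and N592, -0.59 to -0.039 for *Col3a1* and 0.049 to 1.04 for *Bgn*. Unpaired fits without 1 library gave -1.05 to 1.17 for *Col1a1*, -0.29 to 1.13 for *Col1a2*, -1.41 to 0.85 for *Col3a1* and -0.14 to 1.18 for *Bgn*. In these *Col1a1* was also below 0 without N592, at -0.14, and *Col1a2* without E604, N592, N604 and N606, at -0.086, -0.21, -0.12 and -0.21. In the unpaired fits the upper end was reached without N591 in each gene, and the lower end without E591, or for *Col1a2* without E592. The filter of at least 10 CPM in 4 libraries removed *Col1a1* and *Col1a2*. Depth limits what can be said of *Lum*, *Dcn* and *Tcf21*, which had 22, 3 and 6 counts in all. For *Dcn*, with 2 curated transcripts, the part of the counting step was not tested.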
